A study of Drosophila melanogaster with 42 samples.

Results

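Control flies were followed from middle to old age: the 6 arrays of days 70 and 80 were compared with the 5 arrays of days 40 and 50, over every gene measured. These 11 arrays, chosen by genotype and age from their titles, are part of a series of 42 two-colour arrays of adult male Drosophila melanogaster, 21 of controls and 21 of Indy206 flies, at 8 ages from day 5 to day 80. All control flies were 2216/CS heterozygotes, that is a matched control line over a Canton-S chromosome, so that they are heterozygous throughout as the Indy206/CS flies are. Indy206 alters the gene Indy, whose product carries citrate across the plasma membrane. The middle-aged controls had 2 arrays at day 40 and 3 at day 50, and the old controls had 3 at day 70 and 3 at day 80. For comparison there were 6 middle-aged and 6 old Indy206 arrays, on days 40, 50, 70 and 80, and 5 arrays of young controls on days 10 and 20.

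Each sample was RNA from the heads and thoraces of 15 males, amplified in a linear round with T7 RNA polymerase, labelled with Cy5 and hybridised against Cy3-labelled reference RNA pooled from controls of all ages. A level below is the log2 ratio of sample over reference, and a change is a difference between 2 levels; the log base and the direction are likely ones and not stated, and every sign rests on them. In RNA from whole body parts, fewer cells of a type and less RNA per cell cannot be told apart.

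Ageing flies are known to lose transcripts of mitochondrial energy metabolism and to gain those of immune effectors and detoxifying enzymes. Most ATP of the flight muscle and of the brain comes from oxidative phosphorylation: complexes I and II feed electrons into the respiratory chain, complexes III and IV pass them to oxygen, and ATP synthase uses the resulting proton gradient. The TCA cycle supplies the electrons. The nuclear genes for these complexes encode most subunits, and a few are encoded in the mitochondrial genome.

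The 11 arrays correlated with each other at 0.755 to 0.914, with the spots of 1 gene averaged. Their medians lay near 0, and their interquartile ranges ran from 0.18 on control day 80 replicate 2 and 0.19 on control day 70 replicate 3 up to 0.35 on control day 80 replicate 1. The last of these stands apart most often. The dissected tissue was checked against marker genes. The array median of the muscle list was 0.0083 to 0.12 in middle age and -0.044 to 0.14 in old age, and that of the neuronal list was -0.045 to 0.34 and 0.12 to 0.45. Markers of the abdomen were far below the reference throughout: the accessory gland list lay at -3.65 to -2.65 in middle age and -3.53 to -2.51 in old age, and the testis list at -2.38 to -1.41 and -2.34 to -1.15. Midgut digestive enzymes lay at -1.54 to -0.49 in middle age and at -1.65 to -1.09 in old age, lower in old flies on average but overlapping.

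Old controls differed from middle-aged ones in 357 of 19077 units tested, which is 1.87 percent at an adjusted p under 0.05 (limma, Benjamini-Hochberg). A unit is 1 gene or 1 spot with no single paired gene. Of the 9904 single genes, 293 changed (2.96 percent): 145 rose (1.46 percent) and 148 fell (1.49 percent). The median change over single genes was -0.018. The genes that fell included 32 of the respiratory chain and ATP synthase, the chaperone gene Hsc70-1 and Npl4. Those that rose most included the eye colour gene mah, antibacterial Def and AttD, the glutathione S-transferases GstD3 and GstD5, and the phagocytosis receptor gene NimC4. The changes were moderate: the median size was 0.49 for the rising genes and -0.58 for the falling ones, and 10 and 11 genes reached 1.

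In 189 of the 293 genes the old and middle arrays did not overlap, 83 of them higher and 106 lower. Over all single genes 1.46 percent had every old array above every middle array and 1.73 percent the reverse. Without control day 80 replicate 1, 208 units were called in place of 357, and without control day 40 replicate 2, 226 were called. Of the genes named below, UQCR-14L, Ogdh, Hsp60A, mRpL41, sxe2, Vps13 and Irbp lost their call without control day 80 replicate 1 (adjusted p between 0.057 and 0.12, limma). With the median of the midgut list of each array as a covariate 210 units were called. With the testis and accessory gland lists as a covariate 509 were called, all 357 among them, and 35 oxidative phosphorylation genes fell.

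**Figure D1:**
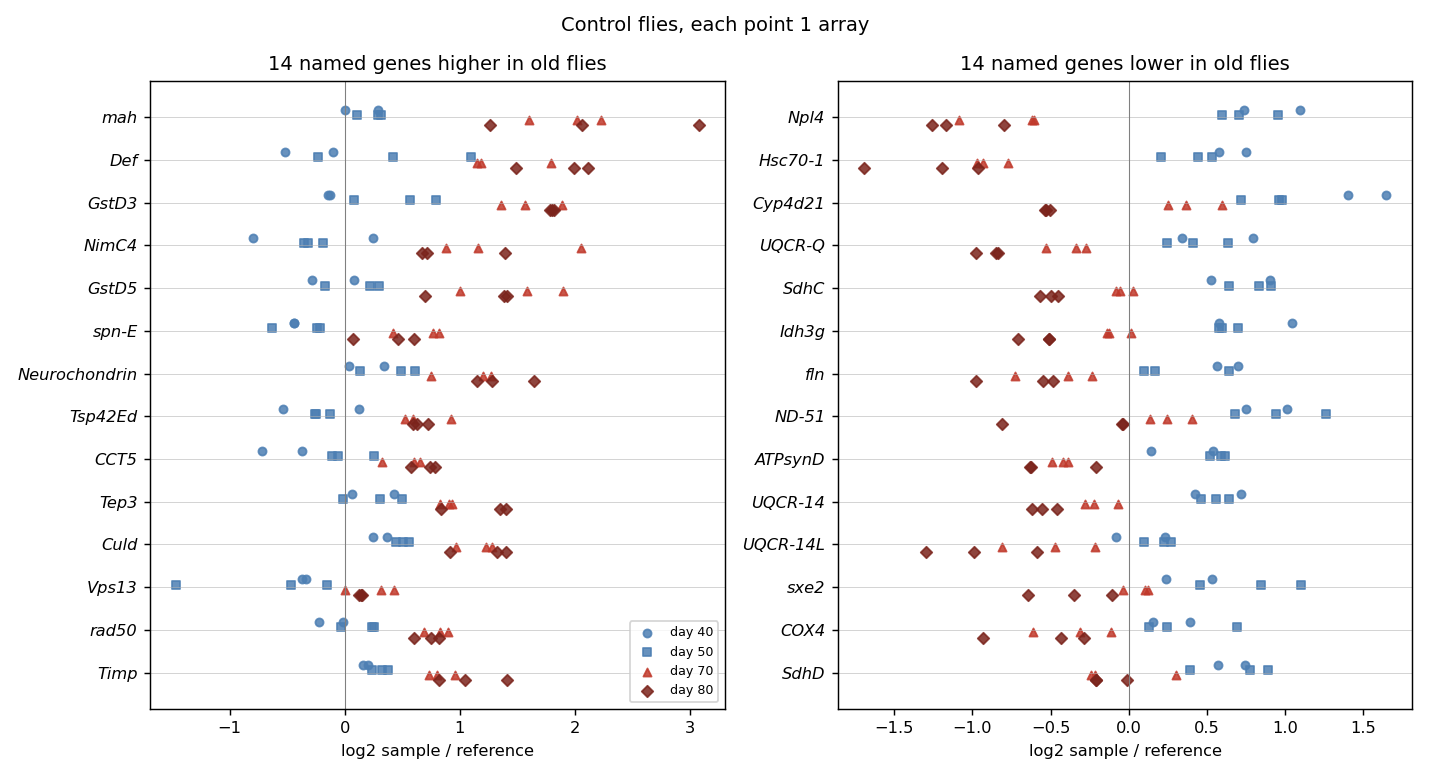
Levels (log2 sample over reference, horizontal axis) of the 14 named genes that rose most (left) and the 14 that fell most (right) among genes whose groups did not overlap. Each point is 1 control array, with blue for days 40 and 50 and red for days 70 and 80. All old arrays of mah lie at 1.26 or higher and all its middle arrays at 0.31 or lower, and Npl4 runs from 0.60 to 1.10 in middle age and from -1.26 to -0.61 in old age.

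The falling genes are taken first. SdhC, which encodes a membrane anchor of succinate dehydrogenase (complex II), read 0.53 and 0.90 on day 40 and 0.64, 0.83 and 0.91 on day 50. Its 6 old arrays ran from -0.57 through a median of -0.27 to 0.03, and all of them lay below all middle arrays. The level fell by 1.03 (SE 0.11, n = 5 and 6 arrays), to 0.488 times, with an adjusted p of 7.1e-07 (limma).

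UQCR-Q, a small subunit of complex III, read 0.34 and 0.80 on day 40 and 0.41, 0.63 and 0.24 on day 50. The old arrays ran from -0.98 through -0.68 to -0.27, again without overlap, and the change was -1.12 (SE 0.13, adjusted p = 9e-06, limma). Idh3g, a subunit of the NAD-dependent isocitrate dehydrogenase of the TCA cycle, went from 0.58, 1.05, 0.60, 0.70 and 0.58 in middle age to old arrays between -0.71 and 0.02 with a median of -0.33. Its change was -1.03 (SE 0.13, adjusted p = 1.6e-05, limma), and one middle array, control day 40 replicate 2, was high among its group.

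Oxidative phosphorylation genes fell as a group in number: of 50 measured genes among 70 listed, 32 fell and none rose, where 1.49 percent of all single genes fell. The median of the 50 was -0.57, or 0.672 times, against -0.018 over all single genes, and 49 of 50 changes were negative. In 31 of the 50 the old arrays all lay below the middle arrays, as in 1.73 percent of all single genes. These 32 genes are 21.6 percent of the genes that fell. The array medians of the whole list were 0.14, 0.48, 0.19, 0.36 and 0.33 in middle age and -0.49 to -0.041 in old age, and the groups did not overlap. The list was chosen with earlier results of these data known, so its count describes it and does not test it.

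In complexes II and III all 8 genes measured fell, with a median of -0.76. Besides SdhC and UQCR-Q these are UQCR-14 at -0.93, SdhD at -0.77, ox at -0.75, Cyt-c1 at -0.68, the Rieske iron-sulphur gene RFeSP at -0.67 and SdhB at -0.64. UQCR-14L, a paralogue of UQCR-14 outside the fixed list, fell by 0.88 as well. UQCR-14 was measured by 2 spots, which changed by -0.97 and -0.88, and RFeSP by 2, at -0.60 and -0.73. The 2 spots of SdhB differed more, at -0.98 and -0.31, so its value is a mean of unlike spots.

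Of the 21 complex I genes 10 fell, with a median of -0.48. ND-51, the flavoprotein subunit that takes electrons from NADH, fell by 0.95, and ND-75, ND-39, ND-42 and ND-20 fell by 0.70, 0.65, 0.63 and 0.58. The 11 others did not pass the test, and ND-B22 had the one positive change of all 50 genes, 0.18. In ND-51 the old arrays lay between -0.81 and 0.41, and control day 80 replicate 1 was the low one.

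In complex IV 5 of 8 genes fell, with a median of -0.56: COX4 by 0.77, COX5A by 0.71, cype (subunit 6C) by 0.70, levy (subunit 6A) by 0.61 and COX7C by 0.51. In ATP synthase 9 of 13 fell, with a median of -0.53. The largest falls there were those of ATPsynG (0.95) and ATPsynD (0.94), followed by ATPsynO (0.72) and the catalytic subunit gene ATPsynbeta (0.71), while blw, the alpha subunit, fell by 0.58. ATPsynD is among the 14 named genes that fell most, which had to pass the test without overlap of their groups. ATPsynG did not meet that rule. The proton-channel gene ATPsynC changed by -0.13 and did not pass the test (adjusted p = 0.88, limma).

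In the TCA cycle 4 of 10 genes fell, where 1.49 percent of all single genes fell, and none rose. Beside Idh3g these were Ogdh by 0.69, whose call was lost in 15 of 28 alternatives, the aconitase gene mAcon1 by 0.63 and Idh3a by 0.49, and the list median was -0.27. No gene of glycolysis (9 measured, median -0.19) or fatty acid oxidation (9 measured, median -0.25) passed the test. The latter median was -0.11 without control day 80 replicate 1 and -0.046 without day 80. Of 60 mitochondrial ribosomal protein genes 3 fell (1.49 percent over all single genes), mRpS30 by 0.76, mRpL1 by 0.45 and mRpL41 by 0.47, with a list median of -0.12. Of 10 genes of mitochondrial dynamics and import 1 fell (1.49 percent over all single genes), with a list median of -0.10. It was the quality control kinase gene Pink1, by 0.39. Of the chaperones of the mitochondrial matrix Hsp60A fell by 0.53 and Trap1 by 0.37. Both are in the list of 19 constitutive chaperones, of which 14 did not pass the test. Hsp60A lost its call in 7 of 28 alternatives.

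**Figure D2:**
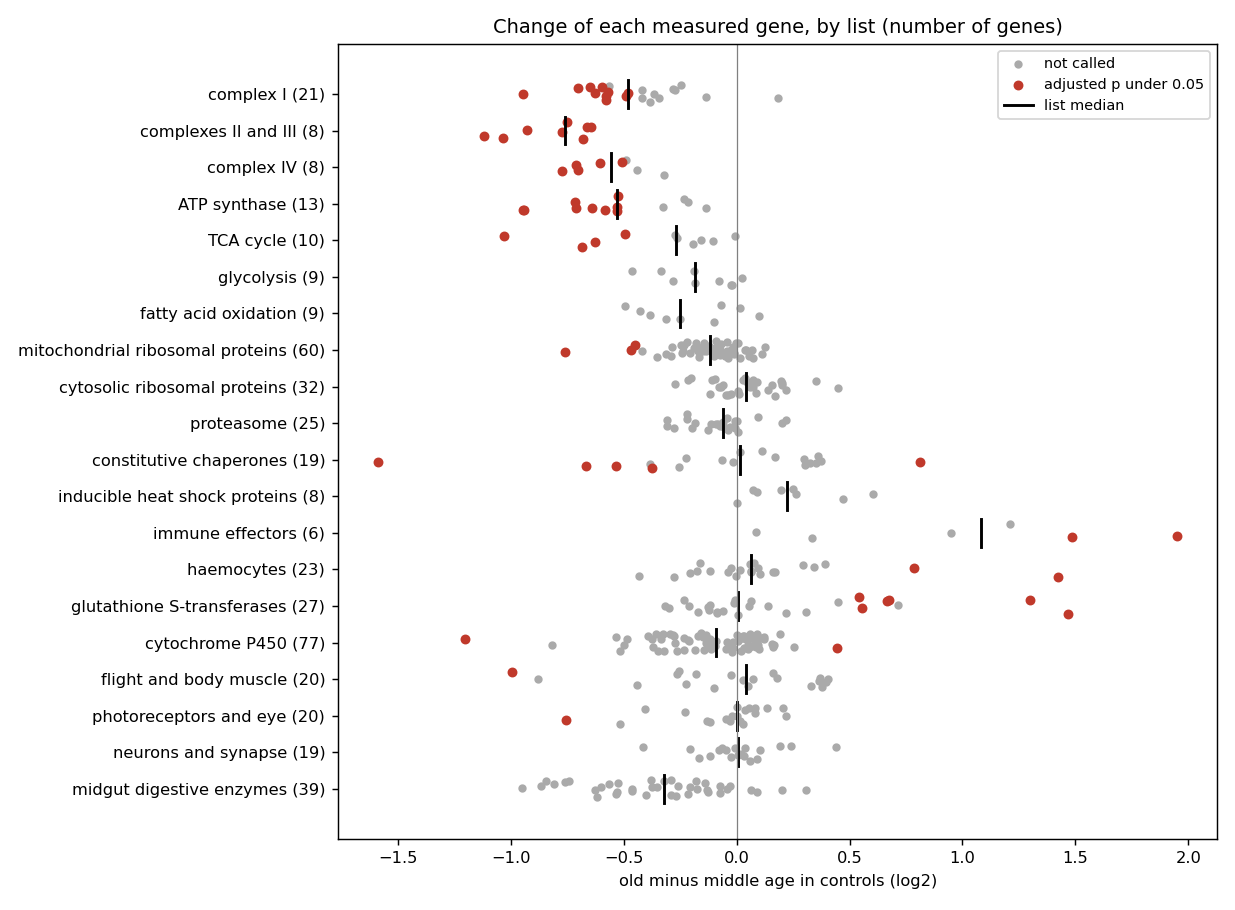
Change from middle to old age in controls (log2, horizontal axis) for each measured gene of 20 lists, with the number of genes in brackets. Red points passed the test, grey points did not, and black bars are list medians: those of the respiratory complexes and ATP synthase lie between -0.76 and -0.48, and those of muscle and neurons at 0.04 and 0.0062.

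Muscle, the tissue richest in mitochondria in the thorax, was looked at through its own marker list. Of 20 muscle genes 1 fell and none rose, where 1.49 percent of all single genes fell. The list median was 0.04 (-0.015 without control day 40 replicate 2). Act88F, the actin of indirect flight muscle, changed by 0.40 (adjusted p = 0.21, limma). The gene that fell was fln, which encodes flightin, a thick filament protein of indirect flight muscle. It fell by 0.99 (SE 0.16, adjusted p = 0.00052, limma), from 0.57, 0.70, 0.10, 0.17 and 0.64 to between -0.98 and -0.23. TpnC4, a troponin C gene of flight muscle, changed by -0.88 (adjusted p = 0.058, limma), and its arrays lay between -0.56 and -0.18 on day 70 and between -1.74 and -1.43 on day 80.

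Of the midgut digestive enzymes 35 of 39 were lower in old flies and none was called. Their median was -0.32, against -0.018 over all single genes. From young to middle age the median had been -0.25, with 27 of 39 lower. Whether they moved together with the oxidative phosphorylation genes was not tested. With the midgut median as a covariate, 18 oxidative phosphorylation genes fell in place of 32, with list medians of -0.47 for complex I and -0.72 for complexes II and III. Without control day 80 replicate 1, 23 fell and these medians were -0.45 and -0.72. Without control day 40 replicate 2, 20 fell.

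Lsp2 of the fat body list changed by -1.93, but none of the 5 measured genes of that list passed the test. The 2 largest falls among the named genes that passed were outside energy metabolism. Npl4, which encodes a cofactor of the ATPase p97 (TER94 in flies) that extracts ubiquitinated proteins, read 0.74 and 1.10 on day 40 and 0.70, 0.60 and 0.96 on day 50. The old arrays ran from -1.26 through -0.94 to -0.61 and did not overlap with these. The change was -1.74 (SE 0.18, 0.299 times, adjusted p = 7.1e-07, limma). Before day 40 its mean had moved up and down: 0.11, 1.39, 0.41 and 1.17 on days 5, 10, 20 and 30, where the accessory gland list median was -1.64, -3.41, -2.06 and -3.29. That list lay at -3.65 to -2.65 in middle age and at -3.53 to -2.51 in old age. Whether Npl4 moved with abdominal tissue in the samples was not tested. With the testis and accessory gland lists as a covariate the change of Npl4 from middle to old age was -1.75, and it kept its call in all 28 alternatives, at -1.89 to -1.59.

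Hsc70-1, a cognate member of the Hsp70 chaperone family, read 0.75 and 0.58 on day 40 and 0.21, 0.53 and 0.45 on day 50. The old arrays ran from -1.69 through -0.97 to -0.77, and the lowest was control day 80 replicate 1. The change was -1.59 (SE 0.17, adjusted p = 9.3e-07, limma). Control means of Hsc70-1 had lain between 0.39 and 0.66 at all ages from day 5 to day 50.

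Chaperones went both ways. Of 19 constitutive chaperone genes 4 fell, Hsc70-1, the DnaJ-type co-chaperone gene Droj2 (0.67), Hsp60A and Trap1, and 1 rose, where 1.49 percent of all single genes fell and 1.46 percent rose. The gene that rose was CCT5, a subunit of the cytosolic chaperonin that folds actin and tubulin, by 0.81 (SE 0.14, adjusted p = 0.00095, limma). The 8 measured CCT genes had changes between 0.11 and 0.81, and the 7 others did not pass the test. None of 8 inducible heat shock genes passed (median 0.22), and Hsp68 was nearest at 0.60 (adjusted p = 0.053). None of 25 proteasome genes passed either (median -0.06).

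Cyp4d21 and sxe2 both fell. These are known as sex-specific enzyme genes of the male head, a cytochrome P450 and a lipase. Cyp4d21 read 1.65 and 1.40 on day 40 and 0.72, 0.96 and 0.98 on day 50. On day 70 it read 0.25, 0.60 and 0.37 and on day 80 -0.53, -0.53 and -0.51, so that the 3 arrays of day 80 lay below the 3 of day 70. The change was -1.20 (SE 0.20, adjusted p = 0.00059, limma). The fall of sxe2 was 0.79 (adjusted p = 0.034), and the call was lost in 13 of 28 alternatives. In the photoreceptor list 1 of 20 genes fell, where 1.49 percent of all single genes fell. It was Arr1, an arrestin that binds rhodopsin, which fell by 0.75 (adjusted p = 0.004, limma). No neuronal gene of 19 passed.

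Among the rising genes whose groups did not overlap, mah (mahogany, known from its eye colour mutant) changed most. It read 0.0031 and 0.29 on day 40 and 0.31, 0.11 and 0.29 on day 50, and from 1.26 through 2.04 to 3.07 in old age, without overlap. The change was 1.84 (SE 0.24, 3.58 times, adjusted p = 2.4e-05, limma). The highest old array was control day 80 replicate 1. The control means of mah stayed between -0.17 and 0.29 up to day 50 and were 1.95 on day 70 and 2.13 on day 80.

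Of 27 glutathione S-transferase genes, which conjugate toxic compounds to glutathione, 6 rose, where 1.46 percent of all single genes rose, and none fell. GstD3 read -0.13 and -0.15 on day 40 and 0.08, 0.57 and 0.80 on day 50, against 1.35 to 1.89 with a median of 1.79 in old age. Its change was 1.47 (SE 0.24, adjusted p = 0.00059, limma) and that of GstD5 was 1.30 (SE 0.22, adjusted p = 0.0006). The groups did not overlap in either. GstD4 rose by 0.67, GstE14 by 0.66, GstE11 by 0.55 and GstD6 by 0.54.

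GstD3, GstD4, GstD5 and GstD6 are neighbours in 1 cluster of related sequences, and signal shared between their spots was not tested. GstD2, of the same cluster, changed by 0.72 (adjusted p = 0.058). The median of the whole list of 27 was 0.0076, near that of all single genes. None of 14 antioxidant enzyme genes passed the test (median -0.06); Cat, catalase, changed by -0.08 and the mitochondrial superoxide dismutase gene Sod2 by -0.35 (adjusted p = 0.28).

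Antimicrobial peptide genes varied widely between arrays. Def (Defensin) read -0.52 and -0.10 on day 40 and 1.09, 0.42 and -0.23 on day 50, and 1.15 to 2.11 with a median of 1.64 in old age. The gap between the groups was narrow, 1.09 against 1.15, and the change was 1.49 (SE 0.32, adjusted p = 0.0095, limma). AttD (Attacin-D) rose by 1.95 (SE 0.39, adjusted p = 0.004), the largest change of all named single genes, but its groups overlapped, because 1 middle array read 0.95 and the other 4 between -2.10 and -1.14.

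Of 6 immune effector genes measured among 28 listed, 2 rose (1.46 percent over all single genes) and all 6 changes were positive, with a median of 1.08. From young to middle age the median change of this list was 1.11, also with all 6 positive and none called. The gain was therefore not particular to the later span. DptB changed by 1.21 and AttB by 0.95 without passing (adjusted p = 0.18 and 0.48). Array medians of the list were -0.63 to 0.89 in middle age and 0.63 to 1.39 in old age. No gene of Toll and Imd signalling (22 measured, median 0.03) or of peptidoglycan and glucan recognition (9 measured) passed the test.

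NimC4, a receptor by which phagocytes and glia take up apoptotic cells, read -0.80 and 0.25 on day 40 and -0.32, -0.19 and -0.35 on day 50. The old arrays ran from 0.67 through 1.02 to 2.05, and the change was 1.42 (SE 0.27, adjusted p = 0.0025, limma). Tep3, a thioester-containing protein gene of the immune response, rose by 0.79 (SE 0.10, adjusted p = 3.6e-05). They were the 2 of 23 haemocyte genes that rose, where 1.46 percent of all single genes rose. Of the 23 changes 14 were positive and 9 negative, with a median of 0.06. In 3 genes all old arrays lay above all middle arrays, as in 1.46 percent of all single genes, and in none the reverse. The markers Hml, eater and NimC1, named after their values were seen, changed by 0.06, -0.04 and 0.01 (adjusted p = 0.94, 0.96 and 0.99, limma). The array median of the list was 0.18 to 0.28 in middle age (mean 0.22) and 0.24 to 0.42 in old age (mean 0.34).

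The gene rad50, of the complex that binds DNA double-strand breaks, read -0.02, -0.22, 0.24, 0.26 and -0.03 in middle age and 0.61 to 0.89 in old age. It had one of the smallest adjusted p-values, 7.1e-06 (limma), at a change of 0.72 (SE 0.08). RnrL, the large subunit of ribonucleotide reductase, rose by 0.98 and Irbp, the Ku70 homologue, by 0.51, as 2 of 16 genes of DNA damage and cell death, where 1.46 percent of all single genes rose. Irbp lost its call in 16 of 28 alternatives. The helicase gene spn-E, of the germline piRNA pathway, rose by 0.92 (SE 0.15), from between -0.63 and -0.22 to between 0.07 and 0.82.

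The remaining named genes that rose were Neurochondrin (0.90), the tetraspanin gene Tsp42Ed (0.87), Culd (0.76), Vps13 (0.75), whose protein moves lipids between membranes, and Timp (0.70), the inhibitor of matrix metalloproteinases. Vps13 rested on few arrays: the middle array control day 50 replicate 3 read -1.46 and the other 4 between -0.47 and -0.15. Without that array its change was 0.52 and did not pass (adjusted p = 0.15, limma), and the call was lost in 17 of 28 alternatives.

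The 2 old ages were compared with the same middle arrays, so they are not independent and their values are given side by side. At day 70, 91 single genes were called (0.919 percent), 59 higher and 32 lower, and at day 80, 295 (2.98 percent), 114 higher and 181 lower. All 293 genes of the whole comparison had the same sign at both ages. The change was further from 0 at day 80 in 82 of the 145 rising genes and in 130 of the 148 falling ones. The number at day 70 depended on several arrays. Over all units it was 112, 72 higher and 40 lower. Without control day 70 replicate 3 it was 289, 117 higher and 172 lower, and without the 2 arrays of the smallest spread 284, 121 higher and 163 lower. It was 36 without control day 70 replicate 1, 44 without replicate 2 of that age, and 68 and 61 when replicate 1 or replicate 2 of day 40 was left out. At day 80, 105 units remained without control day 80 replicate 1, in place of 350.

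Oxidative phosphorylation genes had a median change of -0.43 at day 70, where 8 fell (0.323 percent of all single genes fell at that age), and of -0.65 at day 80, where 29 fell (1.83 percent). In 46 of 50 the level at day 80 was below that at day 70. The test of day 80 against day 70, added after the values had been seen, called 1 of all 19077 units, 0.00524 percent, and 1360 had an unadjusted p under 0.05. None of the 50 was called. The gene was Rab19, a small GTPase gene, at 0.46 on day 70 and -0.20 on day 80 relative to middle age, a difference of -0.66 (adjusted p = 0.0099, limma).

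The late change was set against the change over a similar span from young to middle age. From days 10 and 20 to days 40 and 50, 10 single genes were called (0.101 percent), in place of 293 from middle to old. The falling genes of the late change had a median of -0.069 over the earlier span and the rising genes one of 0.093; both spans share the middle arrays, and the genes were chosen on the later one. For the 50 oxidative phosphorylation genes the medians were -0.11 early and -0.57 late.

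Along all ages the list median of the oxidative phosphorylation genes in controls was 1.02 on day 5 and 0.35, 0.41, 0.34, 0.31 and 0.29 from day 10 to day 50. It was -0.12 on day 70 and -0.36 on day 80. The control means therefore dropped between day 5 and day 10, lay close together up to day 50, and were lower at both old ages. For the TCA cycle the means were 0.38 on day 30, -0.013 on day 40 and -0.034 on day 50, and then -0.34 and -0.40.

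**Figure D3:**
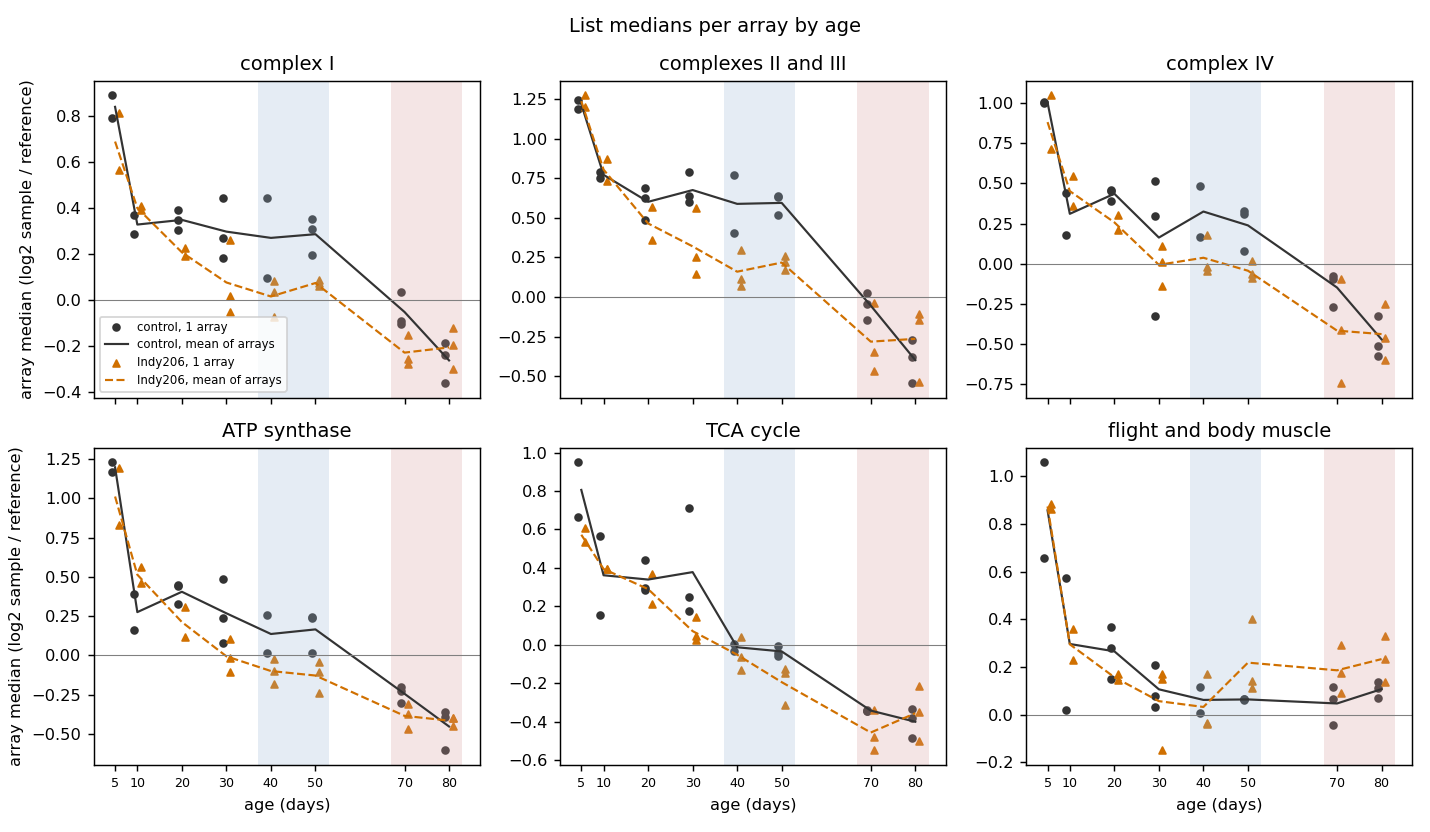
Median level per array (log2 sample over reference) of 6 gene lists against age in days. Black circles are control arrays and orange triangles Indy206 arrays, lines join the means of each age, and shading marks middle age (blue) and old age (red). The control lines of the respiratory complexes and ATP synthase are lowest on days 70 and 80, and the muscle line is level from day 30 on.

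The difference between the late and the early change was tested for every unit. It was called in 4 (0.021 percent), all with a more negative late change: CG14356, Npl4, mRpS30 and Hsc70-1, and 1150 units had an unadjusted p under 0.05. For Npl4 the difference was -1.76 (adjusted p = 0.034, limma), made of an early change of 0.02 and a late one of -1.74. For Hsc70-1 it was -1.59 (adjusted p = 0.045), from 0.0028 and -1.59, and for mRpS30 -0.95 (adjusted p = 0.034), from 0.19 and -0.76. CG14356, a gene of no symbol named here because the count is small, stood at -1.34 (adjusted p = 0.0038), but its middle arrays differed widely, at 1.24 and 1.86 on day 40 and 0.08, 0.23 and 0.62 on day 50. The count ran from 1 to 15 when single arrays were left out, and was 0 on the 21 control arrays alone. It was 15 without control day 40 replicate 1, 9 higher and 6 lower, and 11 without control day 40 replicate 2, 8 higher and 3 lower. With the testis and accessory gland covariate 1 was called, and Npl4, Hsc70-1 and mRpS30 did not pass (adjusted p = 0.061, 0.067 and 0.067, limma). In all, 46 of 50 oxidative phosphorylation genes had a more negative late change with none called.

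**Figure D4:**
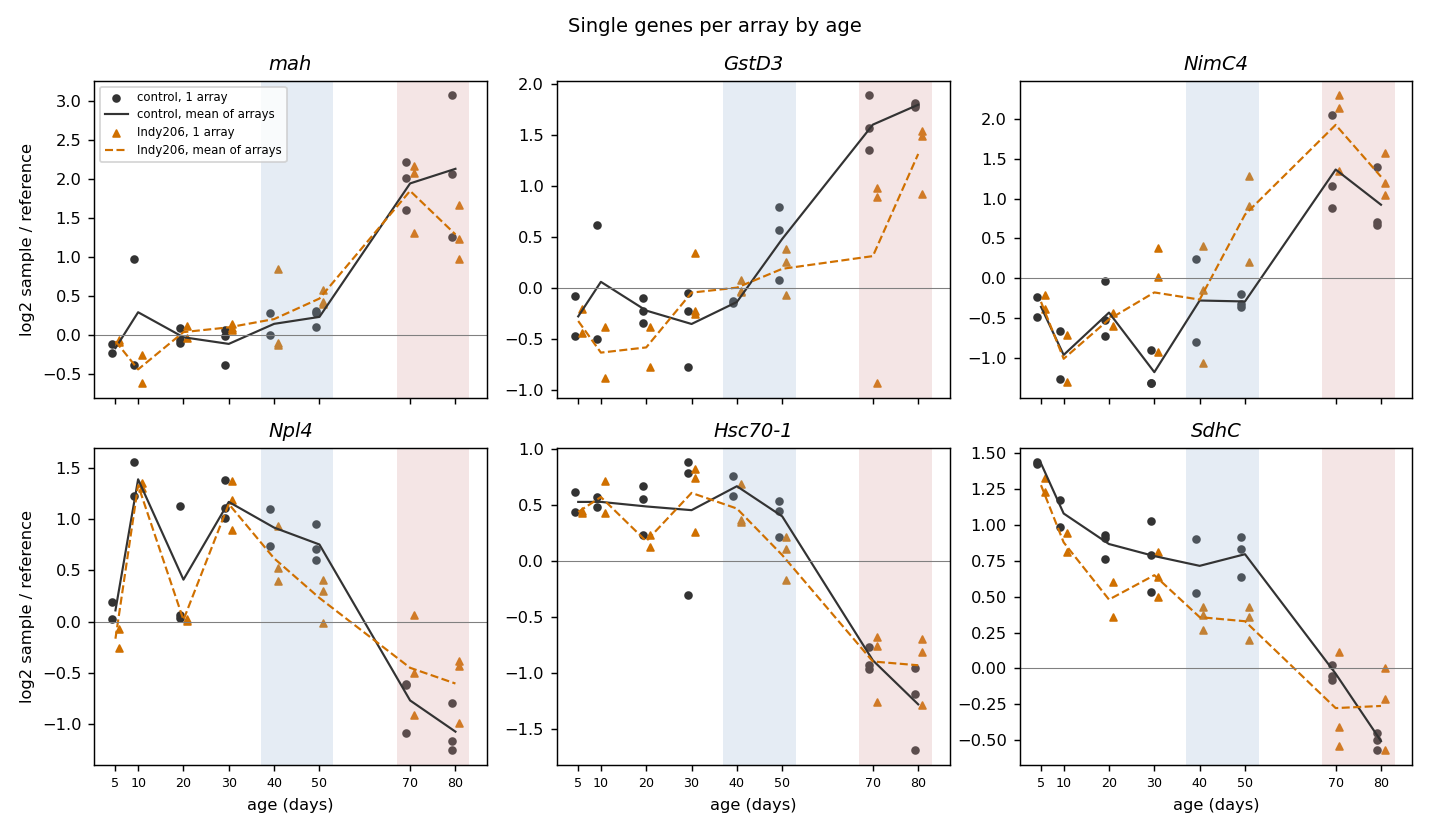
Level (log2 sample over reference) of 6 genes on every array against age in days, with control arrays as black circles, Indy206 arrays as orange triangles, lines through the means of each age, and shading for middle age (blue) and old age (red). In mah, Npl4 and Hsc70-1 the control means move most between day 50 and day 70, from 0.23 to 1.95, from 0.75 to -0.77 and from 0.39 to -0.89.

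Indy206 flies gave the same contrast on other arrays, with the reference RNA shared. There 262 single genes were called from middle to old age (2.65 percent), and 127 of them were called in the controls too, with the same sign. These are 43.3 percent of the control calls and 48.5 percent of the Indy206 calls. The model estimated the spread of each gene from the arrays of both genotypes together. A gene with a small spread is therefore called more readily in both, and the calls of the genotypes are not independent. Of the 293 control genes 287 had the same sign in Indy206, against 7066 of all 9904 single genes. The change was smaller in Indy206 in 246 of the 293, but the genes were selected on their control values, which favours that order.

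The test of the difference between the genotypes called none of 19077 units, while 627 (3.29 percent) had an unadjusted p under 0.05. The smallest p-values belonged to CG14356 (-0.71 in controls, 0.08 in Indy206, adjusted p = 0.19, limma), to the ferrochelatase gene FeCH (0.21 and 0.68, adjusted p = 0.78) and to Snrk, a kinase gene (0.40 and -0.11, adjusted p = 0.78). All 28 named genes had the same sign in Indy206 and 18 were called there.

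Npl4 changed by -1.74 in controls and -0.95 in Indy206, a difference of -0.79 (SE 0.24). GstD3 changed by 1.47 and 0.72, a difference of 0.75 (SE 0.34), and 1 old Indy206 array read -0.94. For rad50 the changes were 0.72 and 0.78 (difference -0.07, SE 0.12) and for NimC4 1.42 and 1.33 (difference 0.10, SE 0.37). In spn-E the Indy206 change was 1.42 against 0.92, a difference of -0.51 (SE 0.21). None of these differences passed the adjustment.

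Of the 50 oxidative phosphorylation genes 10 fell in Indy206, where 1.25 percent of all single genes fell. Of these, 9 are among the 32 of the controls, and the median of the 50 was -0.35. Their Indy206 list medians were 0.93, 0.49, 0.26, 0.10, 0.014, 0.038, -0.30 and -0.29 from day 5 to day 80. In middle age they were 0.014 and 0.038 against 0.31 and 0.29 in controls, and on days 70 and 80 -0.30 and -0.29 against -0.12 and -0.36. The control change was the more negative in 45 of 50 genes, and the difference was called in none of them.

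**Figure D5:**
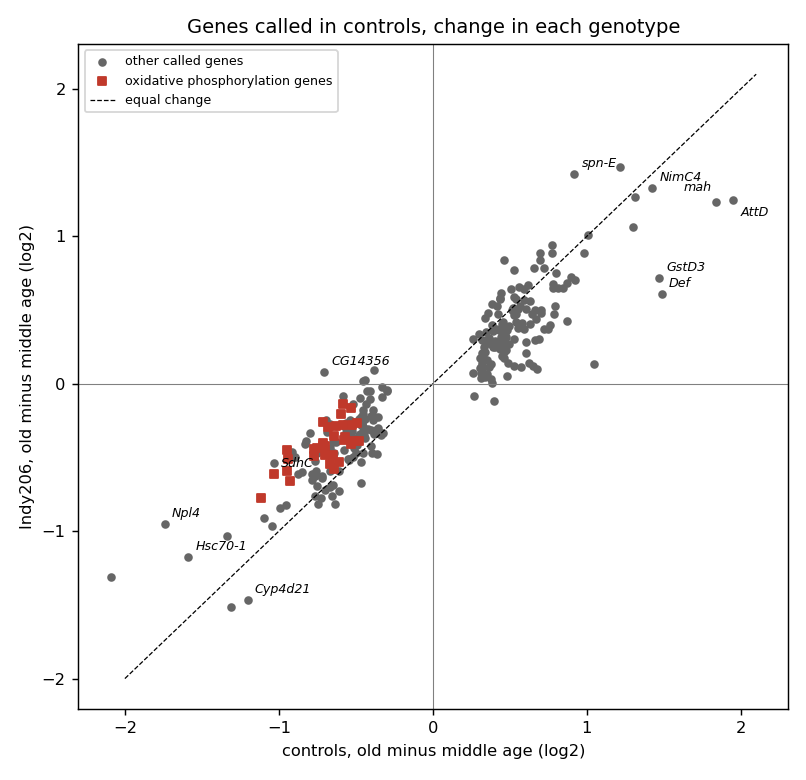
Change from middle to old age (log2) in controls (horizontal axis) and in Indy206 (vertical axis) for the 293 single genes called in controls, with oxidative phosphorylation genes as red squares and the others as grey points. The dashed line marks equal change; 287 genes have the same sign in both genotypes and 246 lie closer to 0 in Indy206, with selection on the control values.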

How the data were processed

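The series is 42 two-colour arrays. The authors deposited log ratios, 1 per spot and array, made with limma, per the submitters' processing notes. The deposited values were read as log2 of sample over reference, which is likely but not stated; their background correction and normalization were not given in the sources used here. Array medians were -0.014 to 0.0019, and nothing was normalized again. Of 20000 spots 10827 had 1 gene in the platform annotation, 227 several and 8946 none; 10823 matched the RefSeq gene table (Release 6 plus ISO1 MT). Spots of 1 gene were averaged (793 genes), giving 19077 units.

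All 42 arrays entered 1 linear model, with a mean for each of the 16 groups and no replicate block (limma 3.58.1, lmFit and eBayes, under R 4.3.3, 26 residual degrees of freedom). P-values were adjusted by Benjamini-Hochberg over all units and called under 0.05. Old and middle means weight arrays equally. Replicates are separate samples of 15 males; with no slide or scan date, batches were not tested. Deviations from the group mean of same-numbered samples of different groups correlated at -0.52 to 0.58 (median -0.08, 15 pairs). Those of differently numbered samples correlated at -0.54 to 0.57 (median 0.009, 30 pairs). The numbers were therefore not used to pair samples. Such deviations cancel within a small group, so the check cannot exclude pairing. The control day 70 sample titled replicate 3 carries another replicate number in its description. The title was used, also in the replicate check. No dye swap is listed.

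The comparison, its 44 gene lists and its tests were chosen with earlier results of these data known. Named genes are the 14 highest and 14 lowest changes among called single genes whose groups do not overlap (bare CG numbers only as fill), up to 4 members a list with the smallest p, the called genes of late minus early, and the 3 smallest p of the genotype difference. Further list members, the haemocyte markers Hml, eater and NimC1, and Rab19 were named after their values were seen. The model was tested on simulated data for the middle to old contrast over 19077 units. It called 70 and 64 percent of changes of 0.5 and -0.5, 94 and 92 percent of 1 and -1, and 7 unchanged units. The simulated noise was independent and, for each unit, of equal spread on every array. The real arrays differ in spread, so these rates need not hold for them. Figures used matplotlib 3.10.9.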

Additional observations from a re-analysis of the deposited data

Results flagged for a closer look

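Values of single arrays were compared with the others of their group for each named gene and list, over 468 groups, and 35 (7.48 percent) had 1 array far from the rest by Dixon's test at the 95 percent level, where chance gives about 1 in 20. Control day 80 replicate 1 held 14 of the 35, and control day 50 replicate 3 held 6. All values below are levels, as log2 sample over reference.

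On control day 80 replicate 1 the low levels were ND-51 at -0.81, ND-42 at -0.91, Cyt-c1 at -0.57, Hsp60A at -0.97, the proteasome gene Rpt2 at -1.26, mRpL41 at -0.55 and GstD4 at 0.53. Its high levels were the insulin signalling gene chico at 0.53, the dopamine synthesis gene ple at 0.91 and the accessory gland gene Acp26Ab at -1.72. The list medians were low for the TCA cycle at -0.49, antioxidant enzymes at -0.37 and autophagy at -0.22, and high for neurons and synapse at 0.45. Without this array 23 of the 50 oxidative phosphorylation genes were called in place of 32.

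On control day 50 replicate 3 Vps13 was low at -1.46, Stat92E at -1.10 and elav at -0.28, and Pgk was high at 0.64, Atg6 at 0.36 and Cpr64Ac at 0.80. Control day 70 replicate 1 was low for VhaPPA1-1 at -0.77, Yp1 at -0.48 and the yolk protein list at -0.27, and high for the iron and metal handling list at 0.25. On control day 40 replicate 1 ATPsynD was low at 0.14 and eIF6 at -0.47, and vri was high at 0.85. On control day 40 replicate 2 Idh3g was high at 1.05 and ATPsynO at 0.58.

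On control day 70 replicate 2 Lip4 was high at 0.66 and Akt low at -0.16, and on control day 70 replicate 3 Acp95EF was low at -3.06. On control day 80 replicate 3 bam was high at 0.16, as was the inducible heat shock list at 0.23, and on control day 50 replicate 1 Opa1 was low at -0.12. No difference between the genotypes passed the test.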

How the results depend on the processing

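None of the 28 named genes changed direction, and of the 357 called units 1 turned its sign, without day 40. Some list medians near 0, such as those of the proteasome, antioxidant enzyme and testis lists, changed sign in some settings, and counts moved. The control middle to old change (357 units) gave 587 with array quality weights, 210 with the midgut covariate, 188 on the 21 control arrays alone, 193 and 154 on the 11 arrays alone with 4 ages or 2 groups, 156 without day 40, 112 without day 80 and 199 at a size of at least 0.5; leaving out single arrays gave 208 to 367. The share of higher calls, 49.9 percent, became 70.1 without day 50, 38.6 without day 70 and 64.3 without day 80. Control day 70 minus middle (112) gave 189, 72, 42 and 54 with array weights, the midgut covariate, the 21 arrays and the 11 arrays, 27 without day 40 and 284 without the 2 arrays of the smallest spread; single arrays left out gave 36 to 289, and replicate 2 of day 70 gave 44. Control day 80 minus middle (350) gave 538, 165, 175 and 191 with the same 4 settings, 209 without day 40 and 205 without day 50; single arrays left out gave 105 to 423, with 229 without replicate 3 of day 80. The late minus early change (4) gave 9 with quantile normalization and 9 with a common spread, 15 with array weights, 1 with the testis and accessory gland covariate, 2 with the midgut covariate, 0 on the 21 arrays and 7 with ages weighted equally, and 1 to 15 with single arrays left out. The genotype difference (0) gave 1 with ages weighted equally and 0 to 4 with single arrays left out. Oxidative phosphorylation genes called lower (32) numbered 18 with the midgut covariate, 19 on the 21 arrays, 17 without day 40, 15 without day 50 and 8 without day 80; single arrays left out gave 20 to 32. The cause was not tested, except that fewer arrays enter several of these fits. Of the 357 units 326 were still called with quantile normalization, 351 with a common spread, 354 with array weights and 201 without control day 80 replicate 1. The midgut covariate and the exclusion of the 2 arrays were chosen after seeing the data. With the replicate block, which the replicate check does not back, 339 units were called. Of the 28 named genes 17 kept their call in all 28 alternatives; Vps13 lost it in 17, sxe2 in 13, COX4 in 6, Tsp42Ed and UQCR-14L in 4, Def and ND-51 in 3, Cyp4d21 and SdhD in 2, CCT5 and Timp in 1. Background correction and a filter on dim spots were not run. The number of arrays limits the precision.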

Other observations

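Of all single genes 2.96 percent were called, 1.46 percent higher and 1.49 percent lower. Of 26 aminoacyl-tRNA synthetase genes TrpRS rose by 0.63 (adjusted p = 0.0015, limma) and GluProRS by 0.44 (adjusted p = 0.024), and the mitochondrial PheRS-m fell by 0.47 (adjusted p = 0.031). Of 41 initiation and elongation factor genes eIF6 rose by 0.54 and eIF3i by 0.35, and none of 32 cytosolic ribosomal protein genes was called. Of 93 cuticle protein genes Cpr62Bb rose by 0.70 and Cpr67B by 0.60. Of 77 cytochrome P450 genes Cyp4p1 rose by 0.44 beside the fall of Cyp4d21. The transferrin gene Tsf3 rose by 0.53 and wfs1, an endoplasmic reticulum gene, by 0.47. Of the circadian clock genes none of 11 was called, with vri at -0.39 and tim at -0.45 (adjusted p = 0.26 in both). Of 28 alternatives, the call was lost in 19 for Tsf3, 15 for eIF3i, 14 for PheRS-m, 12 for Cpr62Bb, 11 for GluProRS and Cyp4p1, 6 for Cpr67B, 4 for wfs1 and 3 for TrpRS and eIF6. Without control day 80 replicate 1 the calls of Tsf3, eIF3i, PheRS-m, Cpr62Bb, GluProRS, Cyp4p1 and Cpr67B were lost.

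Of 7532 pairs of adjacent measured genes, 14 had both members called, and 12 of these changed the same way. The 14 pairs hold 26 genes, since the pairs of the GstD cluster overlap. Of all single genes 2.96 percent were called, and the number of pairs expected from that share was not computed. The 12 pairs include GstD3 to GstD6, Arc1 (0.46) and Arc2 (0.59), relatives of retrotransposon Gag genes, and CG13323 (1.31) and CG13324 (1.22), whose middle and old arrays overlapped. ATPsynD (-0.94) and its neighbour CG6040 (0.52) changed in opposite ways, as did CG9449 (-0.42) and CG9451 (0.65). These pairs were named after their values were seen, and signal shared between the spots of related sequences was not tested.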
